A study of Homo sapiens with 74 samples.

Results

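The transcriptome of K562 cells lacking DOT1L was compared with that of wild type K562 cells. K562 is an established human erythroleukaemia line that transcribes embryonic and fetal globin genes and some erythroid membrane genes. DOT1L is a histone methyltransferase that acts on the core of the nucleosome, at lysine 79 of H3. The libraries were chosen by their labels: 3 libraries with the genotype DOT1L-/- (DOT1L KO) and 2 distinct wild type libraries (control), 5 of the 74 samples of a series on the DOT1L complex and transcriptional initiation. Another control column held the same count as the second in all 28131 listed genes and was not used. Of the listed genes, 14301 had enough counts to be tested. The 3 libraries with the genotype ENL-/- (ENL KO) were fitted together with these 5 libraries and served for a direct comparison of the knockouts.

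No drug treatment, time point or age is given for any of these groups, and all were grown in DMEM with fetal bovine serum. The labels do not say how the alleles were made, which part of DOT1L was altered, whether the DOT1L-/- libraries come from 1 clone, or whether the libraries of a group came from separate cultures. P-values therefore measure the spread between these libraries, which may be technical, and a difference between clones cannot be told apart from the loss of DOT1L. The same sequencing lane stands in the labels of the control and the DOT1L KO, and no lane is given for the ENL KO.

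DOT1L adds methyl groups to a residue on the outer face of the nucleosome and does so in proportion to transcription of the underlying gene. It works in a complex with AF9 or ENL, AF10 and AF17. It is best known in blood cells because fusions of MLL with its partners recruit it to HOXA genes and MEIS1 in acute leukaemia, and because mice without it make too few red cells.

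Library totals lay between 20403057 and 29236703 fragments in the 5 compared libraries, and a floor of 3 counts, which a count of 0 cannot exclude, was worth 0.101 to 0.142 CPM (counts scaled by library total and TMM factor). Between 16975 and 16977 genes had a count in a control library and between 17896 and 18243 in a DOT1L KO library. The cell label was checked against 8 erythroleukaemia markers, which summed to 4637 to 5016 CPM in the controls and 8628 to 9035 CPM in the knockout, with none at 0. DOT1L itself (chromosome 19, 2164149 to 2232578, plus strand, GRCh38) had 269.8 and 256 CPM in the controls and 186, 176 and 184 CPM in the knockout libraries (log2 fold change -0.53, SE 0.057, edgeR adjusted p 4.09e-06). The knockout libraries lay below both controls, and the transcript was still counted in each of them. Since the altered part of the gene is not given, the count over the whole gene shows only that the transcript was lower.

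Differences were found across the transcriptome. 7305 of the 14301 tested genes (51.1%) passed the threshold, an adjusted p of 0.05 (quasi-likelihood test of edgeR, Benjamini-Hochberg method). Of all tested genes 26.9% were higher and 24.2% were lower in the knockout. The direction of change went with abundance, taken as a mean that includes the DOT1L KO libraries. Among 1794 genes with a mean under 1 CPM over the 8 fitted libraries, 683 were higher and 139 lower. Genes this low could pass the count filter through the knockout alone, so this split does not stand as support for a direction. Among 2560 genes of at least 100 CPM the order was turned, with 448 higher and 829 lower. The groups from 1 to 10 and from 10 to 100 CPM lay between these, with 1203 higher and 624 lower of 3387 genes and 1512 higher and 1867 lower of 6560 genes. Genes near the floor in the control and the ENL KO, such as AFF3 and CD74 (means 2.74 and 4.84 CPM), reached 1 CPM through the DOT1L KO. The split of the group from 1 to 10 CPM therefore does not stand as support for a direction either. The changes of abundant genes were small: only 24 of the 448 higher and 33 of the 829 lower reached a 2-fold difference, a log2 fold change of at least 1. Over all tested genes 1680 rose and 585 fell by at least that much. Because these are bulk libraries scaled to one another, fewer cells of a type and less RNA per cell cannot be told apart in any value given here.

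**Figure D1:**
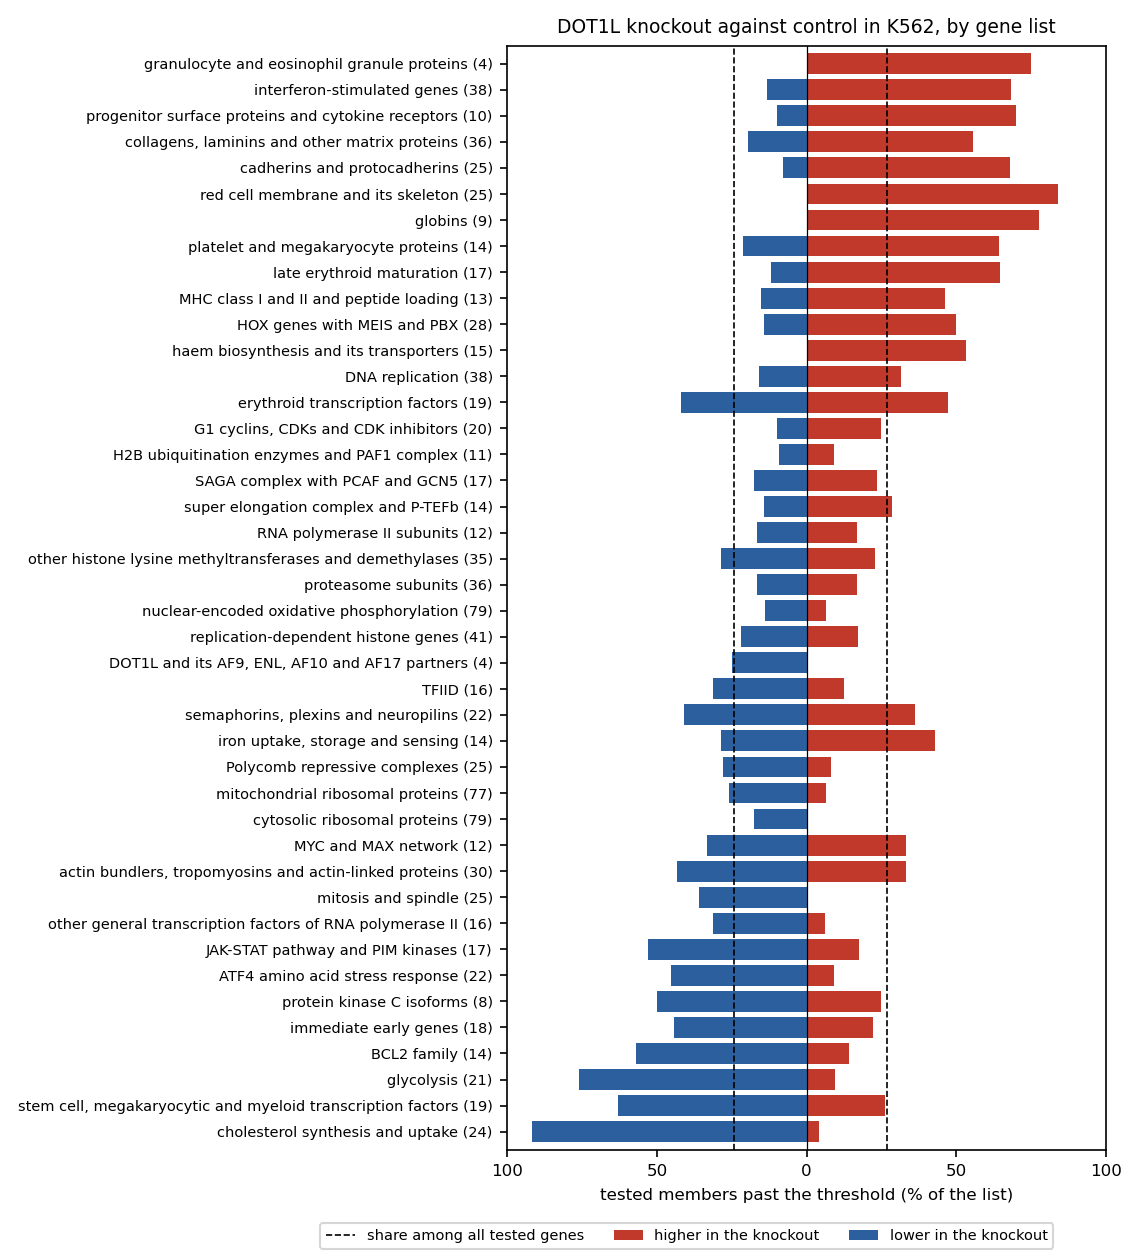
Bars give, for each gene list, the percentage of tested members that were higher (right) or lower (left) in the DOT1L KO than in the control, with the number tested in brackets and lists ordered by their median log2 fold change. Dashed lines mark the shares of all 14301 tested genes, 26.9% higher and 24.2% lower. Cholesterol genes stand lowest, with 22 of 24 members lower, and 21 of 25 red cell membrane genes were higher.

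The largest changes among abundant genes, those with at least 50 CPM in the higher group, included genes best known from other tissues. The 10 largest increases were DPYSL5, TANC1, MBNL3, PRG2, COL1A1, CELF2, LYZ, SPARC, FHDC1 and PKDCC, and the 10 largest decreases were COL1A2, IGF1, IFITM3, FAM78A, IGFBP4, PTPN7, ALDOC, EGFL7, IGF2BP2 and ALDH1A2. Promoters of the 3 largest increases and the 3 largest decreases with an entry in the RefSeq table of GRCh38.p14 are shown because these genes moved by far more than most. COL1A2 had no entry. Each line holds the 150 bases before the start annotated in the RefSeq table, read along the gene from 5′ to 3′. This start can differ from the edge of the gene as counted, so a window can lie apart from the counted gene or reach into it. Capitals mark short motifs searched on both strands. The windows are chr2:26847845-26847994 (plus strand) for DPYSL5, chr2:158968490-158968639 (plus strand) for TANC1 and chrX:132490036-132490185 (minus strand) for MBNL3. They are chr12:102481748-102481897 for IGF1, chr11:320861-321010 for IFITM3 and chr9:131278036-131278185 for FAM78A, all on the minus strand.
DPYSL5: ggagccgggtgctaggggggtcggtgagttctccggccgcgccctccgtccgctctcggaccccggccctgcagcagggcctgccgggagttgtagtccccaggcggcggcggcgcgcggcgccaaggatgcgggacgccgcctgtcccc
TANC1: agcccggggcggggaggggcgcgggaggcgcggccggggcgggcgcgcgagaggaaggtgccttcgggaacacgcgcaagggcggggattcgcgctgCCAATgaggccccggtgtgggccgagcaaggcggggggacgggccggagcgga
MBNL3: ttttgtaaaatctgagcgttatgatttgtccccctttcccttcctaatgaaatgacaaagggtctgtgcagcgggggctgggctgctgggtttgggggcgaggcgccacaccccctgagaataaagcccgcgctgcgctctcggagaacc
IGF1: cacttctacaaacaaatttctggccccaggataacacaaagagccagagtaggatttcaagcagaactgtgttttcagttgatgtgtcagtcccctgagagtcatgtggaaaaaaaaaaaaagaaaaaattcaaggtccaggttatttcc
IFITM3: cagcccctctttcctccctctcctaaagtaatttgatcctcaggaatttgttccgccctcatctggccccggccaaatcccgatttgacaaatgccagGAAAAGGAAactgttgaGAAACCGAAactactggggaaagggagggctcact
FAM78A: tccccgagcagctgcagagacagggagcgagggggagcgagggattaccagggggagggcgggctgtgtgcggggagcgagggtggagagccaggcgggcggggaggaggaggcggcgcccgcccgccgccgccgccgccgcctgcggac

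The motifs were searched in the same 150-base window of all 27305 promoters of the table. The TATA box TATAAA was held by 7.05% of them and the CCAAT box by 24.4%. The interferon-response core GAAANNGAA stood in 4.09% and the SREBP element TCACNCCAC in 0.553%. The GATA sites AGATAA and, in its other form, TGATAA were held by 5.23% and 3.88%, the E box CACGTG by 4.68% and the AP-1 site TGACTCA by 2.83%. None of the motifs searched was in the windows of DPYSL5, MBNL3, IGF1 and FAM78A. TANC1 held a CCAAT box and IFITM3 held the interferon-response core in 2 places. A match is a description of these letters only.

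DPYSL5, a cytosolic protein of growing axons (chromosome 2, 26848101 to 26950351, plus strand), had 0.883 and 1.66 CPM in the controls and 63.1, 66.1 and 66.4 CPM in the knockout libraries (log2 fold change 5.68, SE 0.16, edgeR adjusted p 1.74e-11). TANC1, a scaffold protein of synapses, had 1.63 and 2.60 CPM in the controls and 63.3, 66.0 and 68.3 CPM in the knockout libraries (log2 fold change 4.96, SE 0.14, edgeR adjusted p 2.06e-11). MBNL3, a muscleblind RNA-binding protein that acts in splicing, had 3.67 and 5.06 CPM in the controls and 72.7, 88.0 and 84.4 CPM in the knockout libraries (log2 fold change 4.23, SE 0.16, edgeR adjusted p 1.82e-10). All 3 genes were low in both controls and at 63.1 CPM or more in every knockout library, with no overlap. By contrast MBNL3 was at 0.242, 0.633 and 0.195 CPM in the ENL KO libraries and DPYSL5 at 0.290, 0.438 and 0.261 CPM in the ENL KO libraries, below the controls. The other increases started from a higher control level. PRG2, the major basic protein of eosinophil granules, rose from 9.36 ± 0.28 to 108 ± 8.2 CPM (log2 fold change 3.52, SE 0.093, edgeR adjusted p 1.03e-11). LYZ, the bacteriolytic enzyme of monocytes and granulocytes, rose from 34.0 ± 1.9 to 310.3 ± 17 CPM (log2 fold change 3.19, SE 0.072, edgeR adjusted p 6.70e-12). Among the remaining genes CELF2, an RNA-binding splicing regulator, and SPARC, a calcium-binding matrix protein, had log2 fold changes of 3.32 and 3.06. These 2 genes also stood above the control, at 78.3, 89.9 and 91.9 CPM in the ENL KO libraries and 76.9, 72.8 and 72.7 CPM in the ENL KO libraries, and stood higher still in the DOT1L KO (log2 differences from the ENL KO 0.74 and 1.12).

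The 2 chains of type I collagen moved in opposite directions. COL1A1, the alpha-1 chain (chromosome 17, 50184096 to 50201639, minus strand), had 10.1 and 11.7 CPM in the controls and 116, 120.4 and 114 CPM in the knockout libraries (log2 fold change 3.43, SE 0.089, edgeR adjusted p 9.93e-12). COL1A2, the alpha-2 chain (chromosome 7, 94394561 to 94431232, plus strand), had 69.4 and 65.6 CPM in the controls and 1.86, 1.79 and 1.94 CPM in the knockout libraries (log2 fold change -5.18, SE 0.092, edgeR adjusted p 4.88e-13). Both pairs of groups were apart, and both genes also differed from the ENL KO in the same directions, by 3.11 and -5.27.

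IGF1, a secreted growth factor of the insulin family (chromosome 12, 102395867 to 102480645, minus strand), had 65.6 and 67.8 CPM in the controls and 8.36, 8.31 and 10.3 CPM in the knockout libraries (log2 fold change -2.90, SE 0.096, edgeR adjusted p 6.94e-11). IGFBP4, which binds insulin-like growth factors, fell from 365 ± 21 to 91.6 ± 9.8 CPM (log2 fold change -2.00, SE 0.099, edgeR adjusted p 1.92e-09). IGF2BP2, an RNA-binding protein that acts on IGF2 messenger RNA, fell from 123 ± 4.9 to 34.6 ± 2.3 CPM (log2 fold change -1.83, SE 0.064, edgeR adjusted p 1.14e-10). In none of the 3 genes did the groups overlap. IGF1 was nearly as low at 10.6, 11.8 and 11.8 CPM in the ENL KO libraries, and the difference between the knockouts was -0.35 on the log2 scale (edgeR adjusted p 0.00935), whereas IGFBP4 and IGF2BP2 were lower than in the ENL KO (log2 differences -1.72 and -1.52). Further decreases were in ALDH1A2, which makes retinoic acid (-1.81, SE 0.054), in PTPN7, a tyrosine phosphatase of blood cells (-1.93, SE 0.069), in EGFL7, a secreted protein best known from endothelium (-1.84, SE 0.087), and in FAM78A (-2.19, SE 0.069).

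**Figure D2:**
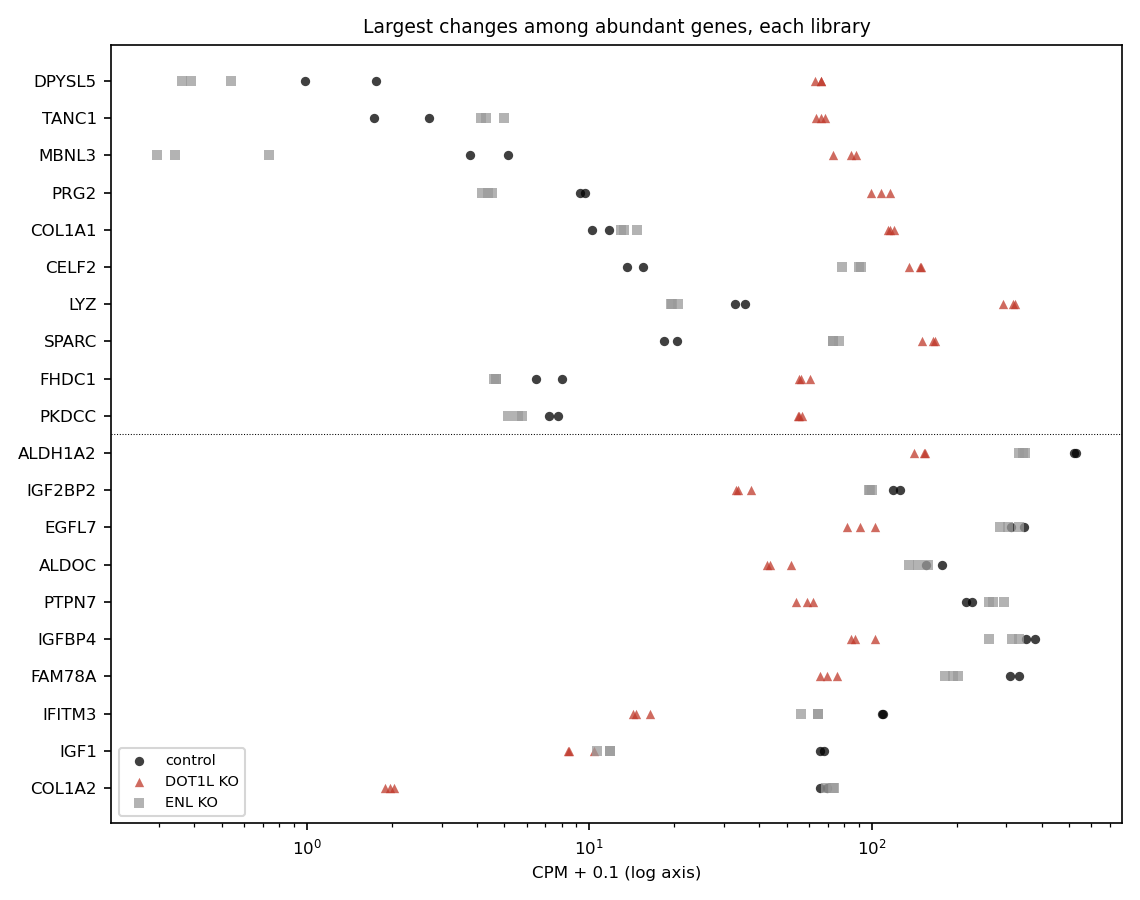
Points give the CPM of single libraries, plus 0.1, on a log axis for the 10 largest increases (above the dotted line) and the 10 largest decreases among abundant genes. In every gene the 3 DOT1L KO libraries lie apart from both controls, and COL1A2 is at 1.79 to 1.94 CPM in the knockout against 65.6 and 69.4 CPM in the controls.

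Most globin and red cell membrane genes rose. Of 9 tested globin genes 7 were higher and none was lower, with a median log2 fold change of 0.81 against 0.01 over all tested genes. HBZ, the embryonic alpha-like chain, had 976 and 1079.5 CPM in the controls and 2700.1, 2841 and 2846 CPM in the knockout libraries (log2 fold change 1.44, SE 0.068, edgeR adjusted p 1.27e-09). HBE1 and HBG2, the embryonic and a fetal beta-like chain, rose from 806 ± 28 to 1411 ± 49 CPM and from 1716 ± 103 to 2576 ± 101 CPM. The knockout libraries lay above both controls in each of these 3 genes, and per kilobase of exon HBZ passed HBG2: it went from 1745 to 4747 CPM per kilobase, HBE1 from 987 to 1729 and HBG2 from 2943 to 4419. HBD, a minor adult chain, rose from 3.59 ± 1.1 to 17.4 ± 0.95 CPM, while HBB, the major adult chain, stayed under 1 CPM in both groups. HBA1 and HBA2, like HBG1 and HBG2, are near-identical copies, so their separate values are uncertain.

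Of 15 haem synthesis genes 8 were higher and none lower (median 0.20). ALAS2, the erythroid form of the first enzyme of the pathway (chromosome X, 55009055 to 55031064, minus strand), had 52.5 and 58.8 CPM in the controls and 347, 361 and 357 CPM in the knockout libraries (log2 fold change 2.67, SE 0.064, edgeR adjusted p 8.98e-12). PPOX, the penultimate enzyme, had 21.6 and 20.6 CPM in the controls and 84.3, 74.8 and 79.4 CPM in the knockout libraries (log2 fold change 1.91, SE 0.097, edgeR adjusted p 2.40e-09). The groups were wide apart in both genes. ALAS1, the housekeeping form of the first enzyme, had a log2 fold change of -0.09 (edgeR adjusted p 0.264). SLC25A37, the mitochondrial iron importer, and FECH, which inserts iron into the ring, rose by 1.15 and 0.62. The promoter of ALAS2 (chrX:55030978-55031127, minus strand, 150 bases before the start, GRCh38.p14) is shown as that of the haem gene with the largest change, chosen after its values were seen. This window reaches into the gene as counted, which ends at 55031064. Its capitals mark a GATA site read on the opposite strand, a CCAAT box and an AP-1 site, in this order.
ALAS2: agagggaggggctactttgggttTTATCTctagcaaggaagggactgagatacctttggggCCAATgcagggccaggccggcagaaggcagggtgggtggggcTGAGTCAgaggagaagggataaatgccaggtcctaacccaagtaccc

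The red cell membrane and its skeleton gave the highest share of increases among the lists counted other than cell markers, with 21 of 25 genes higher and none lower (median 1.07). SLC4A1, the band 3 anion exchanger, had 33.3 and 33.0 CPM in the controls and 207, 204 and 208 CPM in the knockout libraries, a log2 fold change of 2.64. GYPB, a glycophorin that carries the S antigen, had 6.37 and 6.34 CPM in the controls and 31.7, 38.9 and 34.4 CPM in the knockout libraries (log2 fold change 2.46, SE 0.13, edgeR adjusted p 5.33e-09). AQP1, the water channel, rose by 2.45, whereas the ankyrin gene ANK1, the spectrin gene SPTB and EPB41, protein 4.1 of the skeleton, rose by 0.43, 0.40 and 0.36. These 3 were chosen after their values were seen. GYPB and GYPE are paralogs, as are RHD and RHCE, and counts may be split between them. RHAG, the partner of the Rh proteins, was abundant at 641 CPM in the control and had a log2 fold change of -0.06 (edgeR adjusted p 0.419). Against the ENL KO, 20 of the 25 genes were higher and 5 lower, beside 31.8% higher and 28.3% lower of all tested genes, 60.2% in all.

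**Figure D3:**
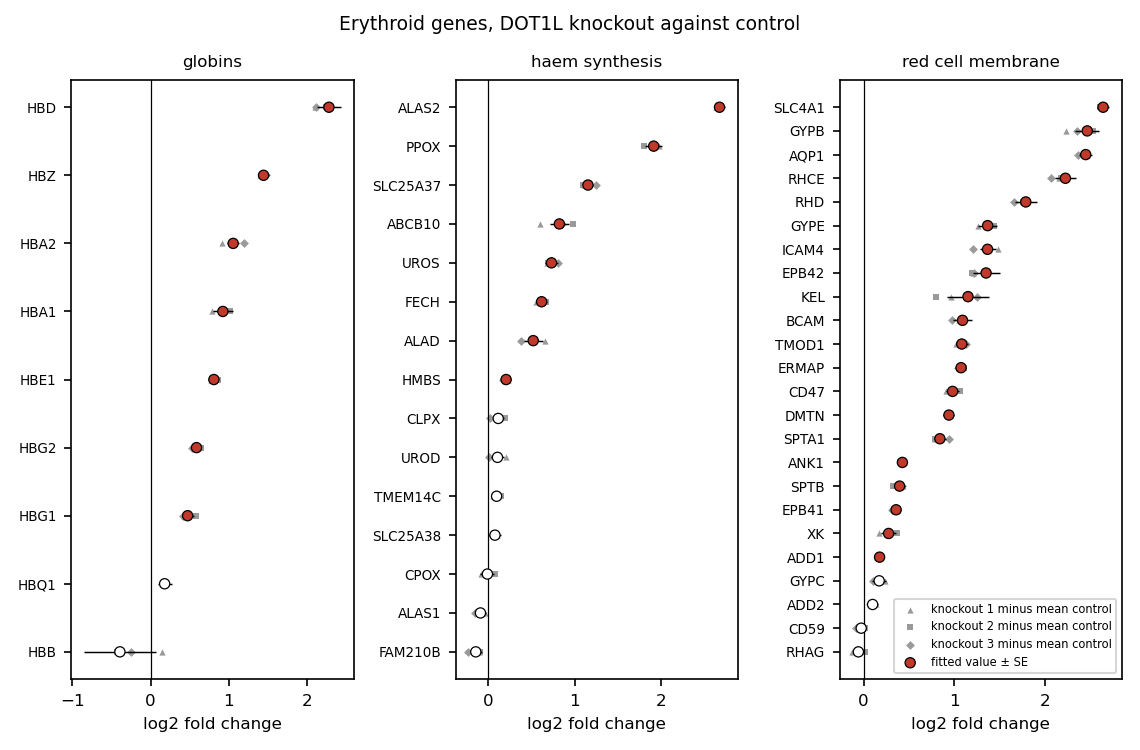
Large circles give the fitted log2 fold change of the DOT1L KO against the control with its SE, red where higher past the threshold and white where not past it, and small grey symbols give each knockout library against the mean of both controls (log2 of CPM + 0.5). The panels hold 9 globin, 15 haem synthesis and 24 of the 25 red cell membrane genes. ALAS2, SLC4A1 and HBD lead their panels at 2.67, 2.64 and 2.28, and no gene of the 3 lists is lower past the threshold.

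Iron genes moved in both directions. Among 14 tested genes 6 rose and 4 fell, beside 26.9% higher and 24.2% lower of all tested genes. TF, the plasma iron carrier, and TFR2, an iron sensor, rose from 1.71 ± 0.054 to 21.2 ± 1.7 CPM and from 135 ± 11 to 305 ± 19 CPM (3.63, SE 0.15 and 1.17, SE 0.085 on the log2 scale). TFRC, the transferrin receptor through which erythroid cells take up iron, fell from 2314 ± 114 to 1921 ± 88 CPM (log2 fold change -0.27, SE 0.058, edgeR adjusted p 0.00165), and ACO1, which in its iron-poor form binds messenger RNAs of iron genes, fell by 0.66. The storage subunits moved apart, FTH1 by 0.36 and FTL by -0.36. Late erythroid genes were mostly higher, 11 of 17 with 2 lower. CA1, a red cell carbonic anhydrase, rose from 3.33 ± 0.040 to 15.2 ± 0.72 CPM, and AHSP, the chaperone of alpha globin, rose from 3.78 ± 0.74 to 11.1 ± 1.5 CPM, while CAT, catalase, and BNIP3L, which acts in clearance of mitochondria, fell (log2 fold changes -0.47 and -0.51).

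The transcription factors of blood cells did not follow the erythroid products as a block. Of 19 erythroid factors 9 were higher and 8 lower, and of 19 stem cell, megakaryocytic and myeloid factors, out of 25 listed, 5 were higher and 12 lower (median -0.52). Over all tested genes 26.9% were higher and 24.2% lower. TAL1, a master regulator of blood formation, had 116 and 119 CPM in the controls and 214, 217 and 216 CPM in the knockout libraries (log2 fold change 0.88, SE 0.053, edgeR adjusted p 1.36e-08). GATA1, the main erythroid GATA factor, rose from 273 ± 10 to 414 ± 11 CPM (log2 fold change 0.60, SE 0.061, edgeR adjusted p 2.43e-06). KLF1, which acts on the beta-globin locus, rose from 196 ± 7.3 to 322 ± 13 CPM (log2 fold change 0.72, SE 0.065, edgeR adjusted p 7.30e-07). The knockout libraries lay above both controls in these genes. GATA2, the GATA factor of progenitors, moved the other way, with 542 and 483 CPM in the controls and 335, 306 and 309 CPM in the knockout libraries (log2 fold change -0.70, SE 0.076, edgeR adjusted p 5.03e-06). MYB, a progenitor factor that restrains terminal differentiation, fell from 352 ± 19 to 249 ± 16 CPM (log2 -0.50, SE 0.067). RUNX1 and SPI1, which act in megakaryocytes and in myeloid cells, rose by 1.11 and 0.95, and HHEX, NFIX and RUNX2 fell (log2 fold changes -1.08, -1.53 and -2.07). SOX6, which acts in silencing of embryonic globin, fell from 31.1 ± 1.6 to 14.9 ± 1.3 CPM (log2 fold change -1.07, SE 0.10, edgeR adjusted p 1.49e-06).

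Transcripts of STAT5, the factor that carries signals of the erythropoietin receptor and of the BCR-ABL kinase of this line, were lower. STAT5A (chromosome 17, 42287547 to 42311942, plus strand) had 863 and 882 CPM in the controls and 346, 358 and 356 CPM in the knockout libraries (log2 fold change -1.31, SE 0.049, edgeR adjusted p 1.82e-10). Its twin STAT5B fell from 304 ± 10.0 to 216 ± 3.7 CPM (log2 -0.49, SE 0.049). The groups did not overlap in either gene. Of 17 tested genes of the JAK-STAT list 9 fell and 3 rose, beside 24.2% lower and 26.9% higher of all tested genes. Those that rose were PIM2, a survival kinase (1.02, SE 0.063), STAT2 and STAT4. STAT4 had 0 counts in both controls and 1.09 CPM in the knockout, at least 7.73-fold higher with a floor of 3 counts per library. EPOR, the erythropoietin receptor, was higher by 0.79.

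Cholesterol synthesis and uptake showed the most one-sided decrease of the lists counted. The pathway makes cholesterol from acetyl units through mevalonate and squalene, and its genes share control by the SREBP2 factor, which senses sterols in the membrane. All 24 listed genes were tested, and 22 were lower and 1 higher (median -0.91). INSIG1, the sterol-sensing brake on SREBP (chromosome 7, 155297772 to 155310235, plus strand), had 716 and 783 CPM in the controls and 284, 321 and 302 CPM in the knockout libraries (log2 fold change -1.31, SE 0.061, edgeR adjusted p 1.24e-09). Every knockout library lay below both controls. HMGCS1, an early step of the route, fell from 201 ± 3.5 to 90.5 ± 5.1 CPM (log2 fold change -1.15, SE 0.065, edgeR adjusted p 7.40e-09), and FDFT1, the first step committed to sterols, fell from 576 ± 18 to 244 ± 6.4 CPM (log2 fold change -1.24, SE 0.050, edgeR adjusted p 3.23e-10). The transcript of SREBF2, which encodes SREBP2, fell by only 0.21 (SE 0.0477, edgeR adjusted p 0.0025). PMVK, the phosphomevalonate kinase, was the single gene that rose (0.45, SE 0.12), a call that was lost without control 2 (edgeR adjusted p 0.0999). HMGCS1, FDFT1 and SREBF2 were chosen after their values were seen.

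Against the ENL KO the cholesterol genes were lower as well, 18 of 24 with 2 higher (median -0.40). The 150 bases before the start of HMGCS1 (chr5:43313413-43313562, minus strand) and INSIG1 (chr7:155297728-155297877, plus strand) are shown from the same RefSeq table as promoters of genes that moved together. The capitals mark a CCAAT box read on the opposite strand and a TATA box in HMGCS1, and an E box and a TATA box in INSIG1. The INSIG1 window reaches into the gene as counted, which starts at 155297772, and both of its motifs lie inside the counted gene.
HMGCS1: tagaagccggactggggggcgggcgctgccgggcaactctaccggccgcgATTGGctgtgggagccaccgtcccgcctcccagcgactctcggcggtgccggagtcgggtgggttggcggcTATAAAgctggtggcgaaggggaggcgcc
INSIG1: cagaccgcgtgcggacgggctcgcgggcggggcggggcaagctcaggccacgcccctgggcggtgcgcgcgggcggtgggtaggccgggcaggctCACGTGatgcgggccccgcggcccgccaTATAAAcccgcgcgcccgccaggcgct

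Glycolysis was lower too, with 16 of 21 genes down and 2 up (median -0.45), and 16 of 21 were also lower than in the ENL KO. ALDOC, a brain-type aldolase (chromosome 17, 28573115 to 28576933, minus strand), had 177 and 156 CPM in the controls and 51.9, 43.7 and 42.4 CPM in the knockout libraries (log2 fold change -1.86, SE 0.090, edgeR adjusted p 1.68e-09). PDK1, a kinase that inhibits pyruvate dehydrogenase, fell from 31.5 ± 0.71 to 13.0 ± 1.3 CPM (log2 fold change -1.27, SE 0.088, edgeR adjusted p 5.67e-08). Each knockout library lay below both controls in these genes. The abundant enzymes fell less: LDHA, lactate dehydrogenase, PGK1 and ENO1 fell (log2 fold changes -0.73, -0.62 and -0.52), and were chosen after their values were seen. ENO2, the neuronal enolase, and SLC2A1, the erythroid glucose transporter, rose by 1.30 and 0.41. SLC2A3, another glucose transporter, fell by 1.07.

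**Figure D4:**
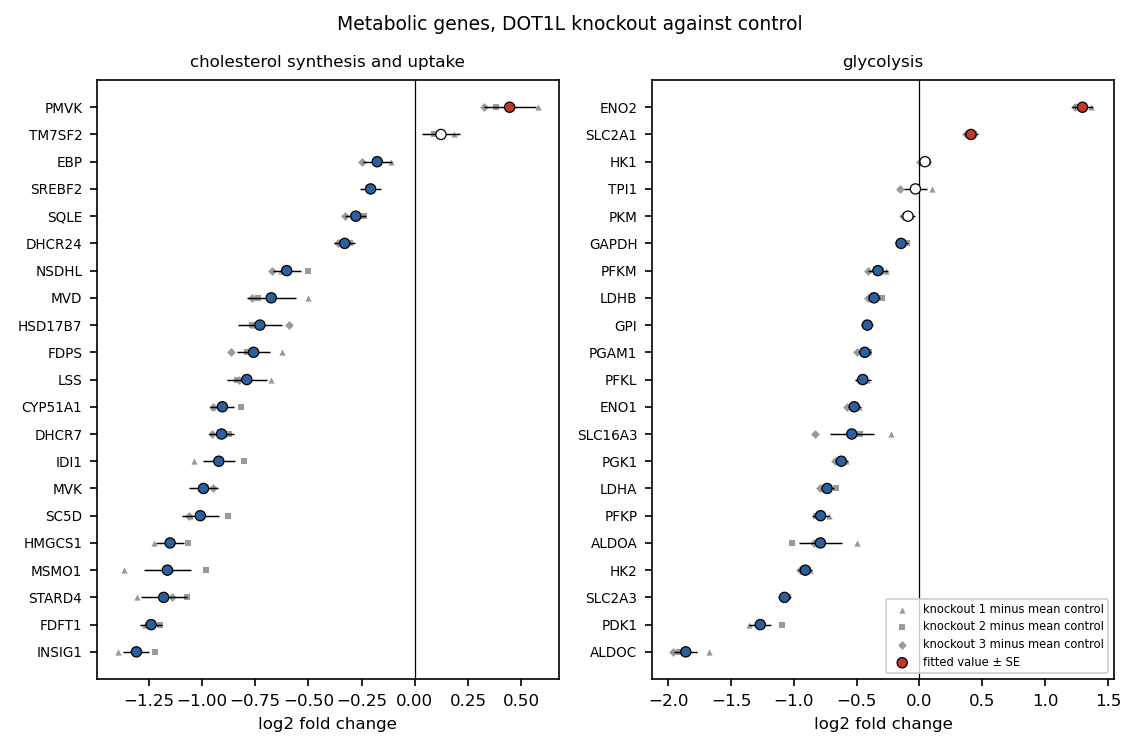
Circles give the fitted log2 fold change of the DOT1L KO against the control with its SE for 21 of the 24 cholesterol genes and the 21 glycolysis genes, blue where lower and red where higher past the threshold, and grey symbols give each knockout library against the mean of both controls. INSIG1 and ALDOC are lowest at -1.31 and -1.86, and ENO2 and PMVK stand on the other side of 0 at 1.30 and 0.45.

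Stress, early response and survival genes moved in both directions, beside 26.9% higher and 24.2% lower of all tested genes, 51.1% in all. Of 22 targets of ATF4, the factor of the amino acid stress response, 10 fell (5 without control 1) and 2 rose. The share of these targets past the threshold was near that of all tested genes, with 45.5% lower and 9.1% higher. DDIT4, an inhibitor of mTOR that hypoxia and stress induce, fell from 297 ± 36 to 133 ± 23 CPM (log2 fold change -1.16, SE 0.14, edgeR adjusted p 1.05e-05). Of 18 immediate early genes 8 fell and 4 rose, and among the 13 with a mean of at least 5 CPM 4 fell and 4 rose. NR4A1, an orphan nuclear receptor, fell from 8.74 ± 1.7 to 2.40 ± 0.065 CPM and FOSL2, an AP-1 subunit, rose from 4.64 ± 0.39 to 8.35 ± 0.35 CPM. Of 14 tested BCL2 family genes 8 fell and 2 rose. BMF, a death-promoting member, rose from 2.20 ± 0.50 to 13.1 ± 1.0 CPM (log2 fold change 2.56, SE 0.16, edgeR adjusted p 1.89e-08), BOK and BNIP3, which also promote death, fell (log2 fold changes -1.41 and -1.40), and BCL2 itself, which protects cells, fell by 1.02. MYC fell from 550.4 ± 27 to 393 ± 2.1 CPM (log2 fold change -0.49, SE 0.051, edgeR adjusted p 3.48e-06), and of 12 genes of its network 4 were higher and 4 lower.

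Interferon-stimulated genes moved in both directions. Of 45 listed genes 38 were tested, 26 higher and 5 lower. As 8 of the 38 were at or under the floor in both controls, they could be tested only because the knockout was high, so this count does not stand as support for a direction. Among the 16 with a mean of at least 5 CPM over all 8 libraries, 8 were higher and 5 lower. This mean includes the DOT1L KO, so a gene can reach it through the knockout alone, and the same limit holds. OAS3, a sensor of double-stranded RNA (chromosome 12, 112938474 to 112973251, plus strand), had 10.9 and 13.3 CPM in the controls and 65.2, 64.5 and 64.3 CPM in the knockout libraries (log2 fold change 2.42, SE 0.10, edgeR adjusted p 5.48e-10). XAF1, a pro-apoptotic gene, had 0 and 1 counts in the controls and 3.23 CPM in the knockout, and MX1, an antiviral GTPase, had 0 counts in both controls and 0.824 CPM, at least 5.86-fold more. The IFITM genes encode membrane proteins that block virus entry. IFITM3 (chromosome 11, 319673 to 320914, minus strand) had 109 and 109.6 CPM in the controls and 16.3, 14.5 and 14.2 CPM in the knockout libraries (log2 fold change -2.86, SE 0.081, edgeR adjusted p 1.81e-11), and IFITM1 had 457 and 483 CPM in the controls and 195, 199.5 and 185 CPM in the knockout libraries (log2 fold change -1.28, SE 0.061, edgeR adjusted p 1.38e-09). In both IFITM genes every knockout library was below both controls, and the reverse held for OAS3. IFITM1 and IFITM3 are paralogs and may share reads.

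Genes of opposite direction held the same interferon-response core before their start in the RefSeq table. The windows of OAS3 (chr12:112938324-112938473, plus strand) and IFITM1 (chr11:313890-314039, plus strand) are shown beside that of IFITM3 above for this reason and were chosen after the values were seen. The windows of IFITM1 and IFITM3 reach into the genes as counted, which start at 313991 and end at 320914. The cores marked in them lie inside the counted genes. Capitals mark the core GAAANNGAA in either orientation, in OAS3 also the SREBP element and in IFITM1 also CCAAT boxes.
OAS3: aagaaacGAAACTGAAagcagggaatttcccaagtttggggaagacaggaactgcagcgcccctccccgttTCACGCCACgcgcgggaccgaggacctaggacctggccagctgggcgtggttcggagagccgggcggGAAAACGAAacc
IFITM1: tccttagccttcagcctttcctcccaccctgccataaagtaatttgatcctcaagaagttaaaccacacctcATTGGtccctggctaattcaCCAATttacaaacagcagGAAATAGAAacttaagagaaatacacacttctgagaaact

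The RefSeq table held promoters of 29 of the 38 tested interferon-stimulated genes, of 18 of the 24 cholesterol genes and of 19 of the 25 red cell membrane genes. Since each is under 80%, a comparison of motif shares or base composition over these lists would be void and is not given.

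The MHC list had 13 of 23 genes tested, with 6 higher and 2 lower. Of these 13, 1 was at or under the floor in both controls, and CD74 passed the count filter through the DOT1L KO alone. This count therefore does not stand as support for a direction. CD74, the invariant chain of class II molecules, rose from 0.329 ± 0.14 to 12.5 ± 0.75 CPM (log2 fold change 5.22, SE 0.22). HLA-C fell from 2.98 ± 0.0027 to 0.779 ± 0.10 CPM, and 7 of the 13 tested genes lie in the region of chromosome 6 described below.

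Genes of matrix and adhesion included several at or under the floor in both controls. Of 70 listed collagens, laminins and related genes 36 passed the filter on counts, 20 higher and 7 lower, and 4 of the 36 were at or under the floor in both controls. Among the 16 with a mean of at least 5 CPM 11 were higher and 4 lower. Since this mean includes the DOT1L KO, neither count stands as support for a direction. COL21A1, a collagen attached to other fibrils, had 1 and 3 counts in the controls and 4.60 CPM in the knockout. LAMB1, a laminin beta chain chosen after its values were seen, rose from 25.5 ± 0.41 to 139.8 ± 6.1 CPM (log2 fold change 2.46, SE 0.085, edgeR adjusted p 1.05e-10). LAMC3, a laminin gamma chain, fell from 1.15 ± 0.11 to 0.0737 ± 0.059 CPM (log2 fold change -3.95, SE 0.56, edgeR adjusted p 5.72e-05), and by -4.69 when knockout library 3 was left out. The abundant fibronectin gene FN1, also chosen after its values were seen, fell from 802 ± 35 to 623 ± 29 CPM (log2 -0.36, SE 0.067). Of 93 cadherins and protocadherins only 25 were tested, 17 higher and 2 lower, and 6 of these were at or under the floor in both controls, so this count does not stand as support for a direction. With the stricter filter 11 were higher, and of the 4 with a mean of at least 5 CPM 2 were higher and 1 lower. A gene can pass both cuts through the DOT1L KO, so the same limit holds for them. PCDH20 had 0 and 1 counts in the controls and 3.09 CPM in the knockout. Actin-linked genes split, 10 of 30 higher and 13 lower. CNN2, a calponin, fell from 305 ± 8.0 to 126 ± 10 CPM (log2 fold change -1.27, SE 0.078, edgeR adjusted p 1.56e-08). TLN1 and VIM, talin and vimentin, chosen after their values were seen, moved from 774 ± 43 to 1276 ± 36 CPM and from 1453 ± 35 to 712 ± 8.5 CPM.

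Products of other blood lineages were mostly low in K562 and several rose. Only 14 of 29 platelet and megakaryocyte genes were tested, 9 higher and 3 lower. Of these 14, 1 was at or under the floor in both controls, and among the 8 with a mean of at least 5 CPM 5 were higher and 3 lower. The DOT1L KO is part of this mean, so neither count stands as support for a direction. THBS1, thrombospondin of platelet granules, rose from 0.423 ± 0.20 to 16.2 ± 1.6 CPM (log2 fold change 5.25, SE 0.22, edgeR adjusted p 4.75e-10), and ITGA2B, the platelet integrin alpha chain, chosen after its values were seen, rose from 4.86 ± 1.4 to 24.9 ± 0.42 CPM (log2 fold change 2.35, SE 0.17, edgeR adjusted p 6.09e-08). SRGN, the granule proteoglycan, fell from 103 ± 5.2 to 58.5 ± 6.6 CPM, and F2RL3, a thrombin receptor, fell from 71.1 ± 4.1 to 44.2 ± 2.3 CPM. Of 18 granule protein genes 4 were tested and 3 were higher, PRG2, LYZ and MS4A3. Of 18 progenitor surface genes 10 were tested, 7 higher and 1 lower. Of these 10, 1 was at or under the floor in both controls, and among the 6 with a mean of at least 5 CPM 4 were higher and 1 lower. The limit given for the platelet genes holds here too. CSF3R, the receptor of the granulocyte growth factor, rose from 1.08 ± 0.013 to 9.78 ± 0.41 CPM (log2 fold change 3.17, SE 0.20, edgeR adjusted p 2.00e-08), and IL1RAP fell from 32.8 ± 0.29 to 12.3 ± 1.3 CPM (log2 fold change -1.41, SE 0.097, edgeR adjusted p 4.95e-08).

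The HOX genes, with MEIS and PBX cofactors, gave 14 higher and 4 lower of 28 tested, out of 46 listed. The higher ones were mainly of low level: 5 were at or under the floor in both controls, and among the 12 with a mean of at least 5 CPM 4 were higher and 3 lower. As this mean includes the DOT1L KO, neither count stands as support for a direction. HOXC13, chosen after its values were seen, rose from 0.774 ± 0.024 to 14.6 ± 1.2 CPM (log2 fold change 4.23, SE 0.21, edgeR adjusted p 1.78e-09), and HOXC11 had 0 and 1 counts in the controls and 1.96 CPM in the knockout. HOXB2, an abundant HOXB gene, fell from 92.9 ± 5.5 to 71.8 ± 2.7 CPM (log2 fold change -0.37, SE 0.066, edgeR adjusted p 3.71e-04).

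Because the series concerns transcriptional initiation, the machinery itself was examined by complex. Of the DOT1L partners MLLT1 (ENL), MLLT6 (AF17) and MLLT10 (AF10) had log2 fold changes of 0.03, 0.14 and -0.10, with edgeR adjusted p-values of 0.659, 0.541 and 0.291. The AF9 gene, MLLT3, was not tested. Of 16 TFIID genes 2 were higher and 5 lower. TAF4B, a cell-type form of TAF4, fell from 35.0 ± 3.3 to 16.3 ± 0.91 CPM (log2 fold change -1.10, SE 0.098, edgeR adjusted p 6.73e-07), TAF11 fell by 0.54, and TAF1 and TAF6 rose by 0.42 and 0.22. Of 16 other general factors 1 was higher and 5 lower. In TFIID and in these other factors the share past the threshold was below the 51.1% of all tested genes. GTF2E2, the beta subunit of TFIIE, fell from 60.3 ± 1.2 to 28.7 ± 0.60 CPM (log2 fold change -1.07, SE 0.067, edgeR adjusted p 2.19e-08), and MNAT1, of the TFIIH kinase, fell by 0.64. All libraries of the groups were apart in TAF4B and GTF2E2.

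Lists of the elongation, acetylation and methylation machinery had members in both directions. Of all tested genes 51.1% were past the threshold, 26.9% higher and 24.2% lower, and no list of this machinery stood far above that total share. Of 14 genes of the super elongation complex and P-TEFb 4 were higher and 2 lower. AFF3 had 0.232 and 0.426 CPM in the controls and 7.04, 6.89 and 7.05 CPM in the knockout libraries (log2 fold change 4.39, SE 0.24). It passed the count filter through the DOT1L KO alone, so no p-value is given. Its place among the 4 higher genes does not stand as support for a direction. MEPCE, which holds P-TEFb in its inactive particle, rose from 130.4 ± 21 to 187 ± 24 CPM, a call lost without control 2 (edgeR adjusted p 0.0599). Of 11 genes of H2B ubiquitination, which stimulates DOT1L, and of the PAF1 complex, CTR9 rose by 0.36 and the ubiquitin ligase gene RNF40 fell by 0.21, the latter not past the threshold without control 1 (edgeR adjusted p 0.0962). Of 12 RNA polymerase II subunits 2 rose and 2 fell, with the largest difference in POLR2H, a subunit that the RNA polymerases share, at -0.35 on the log2 scale. Of 17 SAGA genes 4 rose and 3 fell. KAT2B, the acetyltransferase PCAF, rose by 0.91 and SUPT3H fell by 0.67. Among 35 other histone lysine methyltransferases and demethylases 8 rose and 10 fell, a share near the 51.1% of all tested genes: SETD1B, a writer of promoter methylation on lysine 4, rose by 0.49, and KDM5B, which removes it, fell by 0.84 (edgeR adjusted p 5.20e-07). Of 25 Polycomb genes 2 rose and 7 fell, EZH1 by 0.53 and CBX7 by -0.61, which missed the threshold without control 1 (edgeR adjusted p 0.166).

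Lists of the growth machinery had small median changes. Of 79 cytosolic ribosomal protein genes none was higher and 14 were lower, with a median of -0.09. Mitochondrial ribosomal genes gave 5 higher and 20 lower of 77 (median -0.08), and 79 genes of oxidative phosphorylation gave 5 higher and 11 lower. Proteasome genes gave 6 and 6 of 36. Each of these shares of higher genes was below that of all tested genes. The shares of lower genes were 17.7% in cytosolic ribosomal, 13.9% in oxidative phosphorylation and 16.7% in proteasome genes, also below the 24.2% of all. In mitochondrial ribosomal genes the lower share was 26.0%. The total share past the threshold was below the 51.1% of all tested genes in each of these lists. The counts leaned on the setting and on single libraries. With the replicate block 6 cytosolic ribosomal genes were higher and 29 lower, or 35 lower with the shared control as number 3, and without the count filter 28 were lower. Higher mitochondrial ribosomal genes numbered 2 without control 2, 3 without knockout library 1 and 10 under library-size scaling. Without control 2 there were 6 lower cytosolic ribosomal genes and 1 higher and 1 lower proteasome gene, and the lower cytosolic ribosomal genes ranged from 4 without knockout library 3 to 27 without knockout library 1. Lower genes of oxidative phosphorylation numbered 5 without control 1, and higher ones 10 without knockout library 3. DNA replication genes were higher in 12 and lower in 6 of 38 (5 higher without control 1 and 6 without knockout library 2, and 3 lower without control 2), while of 25 mitosis genes none was higher and 9 were lower, among them AURKA, a spindle kinase (-0.40, SE 0.060), and CDC25C, which releases CDK1 (-0.51, SE 0.096). Of 20 tested cell cycle genes of G1 5 rose and 2 fell. E2F1 rose from 39.6 ± 3.6 to 78.9 ± 8.0 CPM (log2 fold change 0.99, SE 0.11, edgeR adjusted p 3.69e-06) and CDK6 fell from 202 ± 5.9 to 105 ± 3.8 CPM (log2 fold change -0.94, SE 0.089, edgeR adjusted p 1.24e-06). Among the DNA replication, the mitosis and the G1 genes the share past the threshold was below the 51.1% of all tested genes. Of the mitosis genes 36% were lower and none higher, beside 24.2% lower and 26.9% higher of all tested genes.

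Markers of other cell types were counted in the 5 libraries. The 6 fibroblast markers summed to 14.1 to 15.1 CPM in the controls and 129.9 to 137 CPM in the knockout, nearly all of it COL1A1 and COL3A1. LUM, a defining fibroblast marker, was at 0 in all 5 libraries, and PDGFRB, another, averaged 1.69 CPM in the controls and 1.00 CPM in the knockout. Endothelial markers summed to 26.1 to 28.4 and 31.0 to 34.3 CPM with CDH5 at 0 in all libraries, although TEK, the angiopoietin receptor, rose from 0 and 2 counts to 5.83 CPM. Monocyte markers summed to 0.651 to 0.662 CPM in the controls and 1.73 to 2.51 CPM in the knockout with FCN1 at 0. MRC1, the macrophage mannose receptor, had 0 counts in both controls and 0.955 CPM in the knockout, at least 6.79-fold higher. B cell markers summed to 5.95 to 6.86 and 4.63 to 5.06 CPM with MS4A1 at 0. T cell markers summed to 78.5 to 78.8 CPM in the controls and 21.1 to 26.1 CPM in the knockout, with CD8A at 0. CD3D, a chain of the T cell receptor complex, fell from 51.9 ± 1.2 to 17.4 ± 2.4 CPM (log2 fold change -1.58, SE 0.10, edgeR adjusted p 2.57e-08). CD8B, a chain of the CD8 coreceptor, had 0 counts in both controls and 1.24 CPM in the knockout, at least 8.82-fold higher. MRC1 and CD8B passed the count filter through the DOT1L KO alone, so no p-value is given for them. Epithelial keratins, which K562 transcribes, summed with EPCAM and others to 1360.0 to 1379 and 1188 to 1314 CPM, with KRT5 at 0. The part of these cell types in the changes given above was not tested.

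Position on the genome went with the direction of change. Genes of at least 10 CPM were grouped in windows of 10 Mb, and 221 windows held at least 15 of them. Of the 6 windows with the lowest medians 4 were the first 4 windows of chromosome 6. The first 40 Mb of this chromosome held 121 such genes, 84 lower and 9 higher, with a median log2 fold change of -0.40. The remaining 278 genes of chromosome 6 had a median of -0.05, and all 9023 genes of that level had a median of -0.04. Over the 121 genes 83.5% lay below 0, beside 57.2% on the rest of the chromosome. Each knockout library gave window medians between -0.49 and -0.28, and control 2 against control 1 gave between -0.05 and 0.04. Against the ENL KO the median of the 121 genes was -0.46. The number of gene copies in these cells was not analysed here, so for this region and its members fewer copies and less transcription per copy cannot be told apart.

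The genes of this region have varied functions. SERPINB9, an inhibitor of granzyme B (chromosome 6, 2887266 to 2903312, minus strand), had 312 and 327 CPM in the controls and 97.0, 109 and 108 CPM in the knockout libraries (log2 fold change -1.61, SE 0.066, edgeR adjusted p 3.81e-10). SNRNP48, of the minor spliceosome, and WRNIP1, of DNA repair, fell (log2 fold changes -0.81 and -0.80) and lie in the same first window. Lists with members here include those of TFIID with TAF11, of iron with HFE, of JAK-STAT with PIM1, and the MHC genes. Of the 41 tested replication-dependent histone genes 34 lie in it, 9 lower and 3 higher (median -0.16), and of the 7 elsewhere 4 were higher and none lower (median 0.60). Over all 41, 4 were lower without control 2 and 4 higher without control 1. Histone transcripts mostly lack poly(A) tails, so their counts in these poly(A) libraries are a small part of the RNA.

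Elsewhere the highest median was that of the last window of chromosome 1, with 18 of 23 genes higher and 1 lower (median 0.43). ZNF672, a zinc finger gene (chromosome 1, 248838224 to 248849517, plus strand), had 107 and 99.2 CPM in the controls and 240.4, 225 and 216 CPM in the knockout libraries (log2 fold change 1.14, SE 0.072, edgeR adjusted p 2.19e-08). PGBD2 and SH3BP5L, in the same window, rose by 0.90 and 0.81. Of whole chromosomes, 7 had the highest median, 0.09, with 167 of 444 genes higher and 88 lower, and 6 the lowest, -0.14. On chromosome 7 CAV1, the coat protein of caveolae, rose from 1.24 ± 0.38 to 28.9 ± 2.0 CPM (log2 fold change 4.54, SE 0.17, edgeR adjusted p 2.04e-10), and HEPACAM2 rose from 1.76 ± 0.19 to 31.0 ± 1.3 CPM (log2 fold change 4.14, SE 0.13, edgeR adjusted p 4.03e-11). A window of chromosome 10, from 80 to 90 Mb, also stood low, with 14 of 16 genes lower and none higher (median -0.45). The number of gene copies was not analysed for these windows and chromosomes either. Its part in the changes of their genes was not tested.

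**Figure D5:**
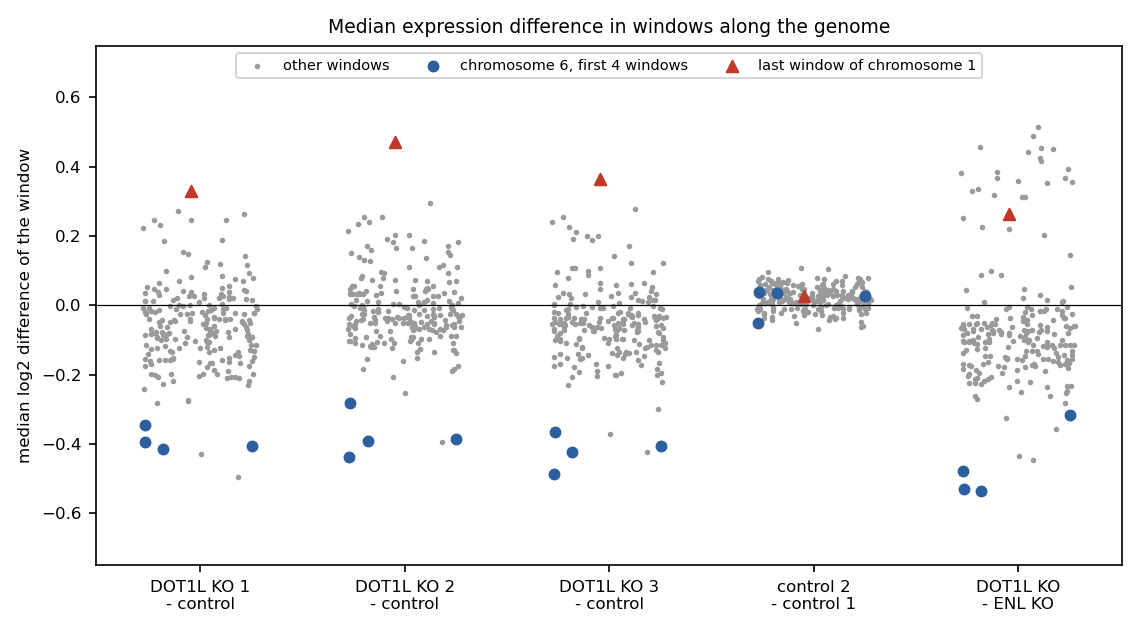
Each point is the median log2 difference of the genes of at least 10 CPM in 1 of 221 windows of 10 Mb, for each DOT1L KO library against the mean control, for the controls against each other and for the DOT1L KO against the ENL KO. The first 4 windows of chromosome 6 (blue) are among the lowest in every knockout library and near 0 between the controls, and the last window of chromosome 1 (red) is the highest against the control in every knockout library.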

How the data were processed

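RNA-seq of K562 was analysed from 8 distinct libraries. Per the labels' protocols, polyadenylated RNA was made into strand-specific libraries with the dUTP method. The authors deposited whole-number fragment counts per gene for 28131 genes, per the file headers, unscaled and not pooled. Per the submitters' processing notes, the tools included fastp 0.13.1, HISAT2 2.1.0 and featureCounts 1.6.1, and the builds hg38 and hg19, with roles not given. The use of strand in counting is not given in the sources used here, so overlapping and antisense genes may share counts.

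Genes were kept with filterByExpr (minimum count 10, minimum total 15), scaled with TMM and tested with edgeR 4.0.16 (glmQLFit and glmQLFTest) in R 4.3.3, all 8 libraries in 1 fit, with Benjamini-Hochberg adjustment over 14301 genes at 0.05. Genes near the floor in the control and the ENL KO, such as AFF3 and CD74, passed this filter through the DOT1L KO alone. P-values of such genes do not stand as support for a direction. Values after ± are SDs over 2 control or 3 DOT1L KO libraries, and floors cover counting error only. The script was tested on simulated data. Control columns 2 and 3 were identical, whereas in other replicate pairs chi-square over its degrees of freedom was 4.24 to 10.2. The members and gene lists were chosen with earlier results of these data known. Genes named were the 10 largest changes in each direction at 50 CPM or more with groups apart, the 2 largest in each direction of each list, symbol family and region, and 10 regulators, and other names were chosen after their values were seen. Results of some genes that this rule names are not reported here. Promoters of 11176 tested genes (78.1%) matched the RefSeq table of GRCh38.p14. Alternatives were other scalings, DESeq2, other filters, fewer libraries, each replicate left out, a replicate block and a fold threshold.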

Additional observations from a re-analysis of the deposited data

How the results depend on the processing

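Counts of genes past the threshold against the control were 6723 to 7735 under the other scalings, DESeq2, the other filters and a fit of only the compared libraries, and 5664 to 7583 with 1 library left out, where a lone control was assumed to vary like the other libraries. Against the ENL KO they were 7987 to 9398 and 7665 to 8585. With a 2-fold minimum added, 2265 genes remained against the control (1680 higher, 585 lower) and 2744 against the ENL KO. DOT1L stayed lower and past the threshold in all of these fits, at -0.549 to -0.483 with all libraries and -0.569 to -0.493 with 1 left out. Of 158 genes named above and past the threshold, 1 call was lost with DESeq2, that of PDGFRB (adjusted p 0.0855; 0.0788 and 0.0916 without knockout libraries 1 and 3), none with the scalings and filters in edgeR, and 3 without control 1 and 3 without control 2. MLLT6, which was not past the threshold, ranged from -0.050 without control 2 to 0.35 without control 1.

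The replicate block gave 8340 genes against the control with the shared control column as number 2 and 8169 as number 3, and 9605 and 9503 against the ENL KO. DOT1L was at -0.52 and -0.54 under this block, and PDGFRB missed the threshold with number 3 (adjusted p 0.0600). With numbers 2 and 3, genes of oxidative phosphorylation numbered 16 and 11 higher and 19 and 22 lower, and mitochondrial ribosomal genes 11 and 8 higher. With number 2, 8 SAGA and 5 JAK-STAT genes were higher. Library-size scaling gave 11 higher genes of oxidative phosphorylation and 8 of SAGA, and it and upper-quartile scaling 9 lower cytosolic ribosomal genes. Without the count filter 19 genes of oxidative phosphorylation were lower and 7 of DNA replication higher. Deviations from the group mean correlated at 0.267 and 0.179 in the 2 pairs of control and DOT1L KO with the same number, at 0.291 and 0.0721 in those of control and ENL KO, and at 0.435, 0.0838 and 0.201 in the 3 pairs of the knockouts. Not every pair was above 0.1, and DOT1L KO library 2 correlated more with ENL KO library 3 (0.185) than with library 2, so the numbers were not taken to pair the libraries. Genes under 1 CPM are limited by depth, since 3 counts are worth up to 0.142 CPM here.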

Other observations

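Some gene groups outside the account above were also counted, with values only. Of 22 tested semaphorin and plexin genes, which guide axons and also act in blood cell adhesion, 8 were higher and 9 lower in the DOT1L KO. PLXNA2, a plexin receptor, had 1.77 and 1.94 CPM in the controls and 17.8, 17.7 and 15.5 CPM in the knockout libraries (log2 fold change 3.20, SE 0.16, edgeR adjusted p 1.81e-09), and SEMA4D, a semaphorin of lymphocytes, fell from 2.79 ± 0.27 to 0.417 ± 0.072 CPM (log2 fold change -2.74, SE 0.25, edgeR adjusted p 7.90e-07). The 8 tested protein kinase C genes gave 2 higher and 4 lower. PRKCE, an isoform that needs no calcium, rose from 0.376 ± 0.20 to 4.22 ± 0.85 CPM (log2 fold change 3.49, SE 0.37, edgeR adjusted p 3.69e-06), and by 4.16 when control 2 was left out, while PRKCQ, the theta isoform of T cells, fell from 32.8 ± 0.86 to 20.1 ± 0.78 CPM (log2 fold change -0.70, SE 0.083, edgeR adjusted p 1.02e-05).

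Genes were also grouped by the letters of their symbol before the first digit, which gave 99 families with at least 15 tested genes. Of all tested genes 26.9% were higher and 24.2% lower, and of those with a mean of 1 to 10 CPM 35.5% and 18.4%. That mean includes the DOT1L KO, through which some genes entered the group. The family with the lowest median was MAPK, 15 kinase genes and their partners, with 9 lower and 1 higher (median -0.33), and MAPK11, a p38 kinase, had 19.6 and 16.6 CPM in the controls and 11.4, 11.7 and 11.6 CPM in the knockout libraries (log2 fold change -0.65, SE 0.11, edgeR adjusted p 2.23e-04). The second highest median, after the collagens, was that of CYP, 17 cytochrome P450 genes with 11 higher and 2 lower (median 0.81). Their median abundance was 3.71 CPM. CYP4X1, with 0 and 1 counts in the controls, passed the count filter through the DOT1L KO alone, so this count does not stand as support for a direction. CYP3A5, an enzyme of drug metabolism, had 1.67 and 1.80 CPM in the controls and 20.3, 18.0 and 23.4 CPM in the knockout libraries (log2 fold change 3.56, SE 0.17, edgeR adjusted p 1.24e-09). CYP51A1, the member of this family in cholesterol synthesis, fell from 314 ± 7.9 to 168 ± 8.9 CPM (log2 fold change -0.90, SE 0.056, edgeR adjusted p 1.88e-08), and CYP26B1, which degrades retinoic acid, fell from 2.30 ± 0.37 to 0.240 ± 0.058 CPM (log2 fold change -3.19, SE 0.36, edgeR adjusted p 6.88e-06). Of 16 tetraspanin genes (TSPAN), at a median abundance of 9.76 CPM, 10 were higher and 4 lower (median 0.56).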
